A study of Danio rerio with 14 samples.

Results

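Rad21 binding in zebrafish embryos (Danio rerio) is described here on either side of genome activation, from the full peak lists of 2.5 and 4.5 hours post fertilisation (hpf). The members are all Rad21 peaks of these lists on chromosomes 1 to 25, 2011 at 2.5 hpf and 7144 at 4.5 hpf, together 9155 of the 41310 peaks in the series. The series also holds Rad21 and CTCF peaks of 10 hpf. In these data 67.6% of the 2.5 hpf Rad21 peaks lay in runs, with another peak within 10 kb, and 652 peaks stood alone. Peaks of 2.5 hpf occupied 40.2% of 1 Mb windows. The longer 4.5 hpf list occupied 96.6%, and its first 2011 peaks 67.3%. With each run counted once, the difference in spread between lists of the same length was much smaller. Of the 2.5 hpf peaks, 76.2% stood on a modelled input background of 2 or more times the genome average. For the 478 others the most crowded 10% of windows held 50.4%, against 53.3% for as many first peaks of 4.5 hpf. Their fullest windows held 10 and 5 peaks, and so short a list can show little. The peaks of the earlier list, above all those in runs, lay farther from later peaks than genome positions in general did. The 38 peaks of at least 10-fold enrichment were an exception, at a median of 45.1 kb against 78.7 kb for genome positions. Positions in the 1 Mb windows of these 38 peaks were also closer, at 59.5 kb.

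Each stage had 2 Rad21 libraries and 2 inputs without antibody, all from pooled whole embryos of the AB/PS strain with no mutation or treatment named. The same custom Rad21 antibody was used at both stages. The 2.5 hpf embryos, called pre-MZT (before the maternal-to-zygotic transition) in the labels, were pooled at 2000 per collection and their chromatin sheared in 6 cycles. The 4.5 hpf embryos were pooled at 1000 and sheared in 10 cycles. Libraries of 2.5 hpf were made with the ThruPLEX DNA-seq kit and read as 125 bp pairs in New Zealand. Those of 4.5 hpf were made and read as 50 bp single ends at another institute in China, with no kit named. The peak caller differed as well, MACS2 at 2.5 hpf and HOMER at 4.5 hpf. Stage, library kit, sequencing site and peak caller therefore change together and cannot be told apart in any difference below. Binding in different cell types of the whole embryo cannot be told apart either. Each list was made from 1 pool of libraries per stage (stated for 2.5 hpf, taken to be so for 4.5 hpf), so no value has a spread between replicates and no difference between stages was tested. The 10 hpf lists share with 4.5 hpf the caller HOMER and its fold and false discovery thresholds. Their embryos were also pooled at 1000, sheared in 10 cycles and read at 50 bp. Likeness of 4.5 to 10 hpf cannot be told apart from this common processing.

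Rad21 is the kleisin subunit of cohesin, which closes the ring formed by the SMC1 and SMC3 proteins around DNA. Cohesin holds sister chromatids together until they separate in mitosis, and on interphase chromatin it extrudes loops that often end where CTCF is bound. A fertilised zebrafish egg divides fast and in synchrony on maternal RNA and protein, and most of its own genome is silent until the midblastula transition. The comparison of 2.5 with 4.5 hpf asks how cohesin is placed on the genome before and after that switch.

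The depth behind the lists differed. The 2.5 hpf libraries had 15362000 tags, of which 5245276, or 34.1%, were left once duplicates were removed, while only 0.10 of the input tags were redundant. The 4.5 hpf libraries had 14255160 tags, and the tags per bp in the header correspond to 11780000, or 82.6%, with 1 tag per position. With 2.25 times the usable tags, the 4.5 hpf list held 3.55 times as many peaks. Peaks of 2.5 hpf had a median width of 310 bp (209 to 3326) and those of 4.5 hpf a single width of 169 bp.

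The earlier peaks were concentrated. The chromosomes were cut into 1369 windows of 1 Mb, and a peak was counted in the window that holds its centre. At 2.5 hpf 551 windows, 40.2%, held a peak, and at 4.5 hpf 1322 windows, 96.6%. A window held a median of 0 peaks and at most 83 at 2.5 hpf, against a median of 5 and at most 19 at 4.5 hpf. The variance of the count was 18.8 times its mean at 2.5 hpf and 2.1 times at 4.5 hpf, where peaks placed independently and evenly would give about 1. The earlier list thus varied far more from window to window although it held fewer peaks.

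The most crowded 10% of windows, 137 of them ranked by each list's own count, held 1502 of the 2011 peaks of 2.5 hpf. That was 74.7% (exact binomial 95% interval 72.7 to 76.6). At 4.5 hpf the corresponding share was 23.3% (22.3 to 24.3). Such intervals cover counting error only, and peaks of one run are not independent. A short list fills fewer windows whatever its spread, so the 4.5 hpf list was also taken at its first 2011 peaks in deposited order, which gave 33.6% (31.6 to 35.7). For all peaks, the earlier list was thus the more crowded at equal length.

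The difference shrank when close peaks were joined. Joining 2.5 hpf peaks within 1 kb to 1348 regions gave 63.3% (60.6 to 65.9), against 38.9% (36.3 to 41.6) for as many first peaks of 4.5 hpf. With both lists joined within 10 kb and 857 regions taken from each, the crowded 10% of windows held 47.5% (44.1 to 50.9) of the earlier and 42.9% (39.6 to 46.3) of the later regions. These regions occupied 550 windows at 2.5 hpf and 562 at 4.5 hpf. By other measures the joined 2.5 hpf list remained the more crowded, with a fullest window of 14 regions against 7 and a variance over mean of 1.82 against 1.39.

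Subsets of the 2.5 hpf list went different ways. The 908 peaks of at least 4-fold enrichment gave 62.3% (59.1 to 65.5), against 43.9% (40.7 to 47.2) for as many first peaks of 4.5 hpf. The 478 peaks on a low modelled input background, under 2 times the genome average, gave 50.4% (45.8 to 54.99) against 53.3% (48.8 to 57.9), with fullest windows of 10 and 5 peaks. A list this short leaves most windows with 1 peak or none, so the share can show little. Equal lengths and the joining of both lists were chosen after the first shares had been seen.

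**Figure D1:**
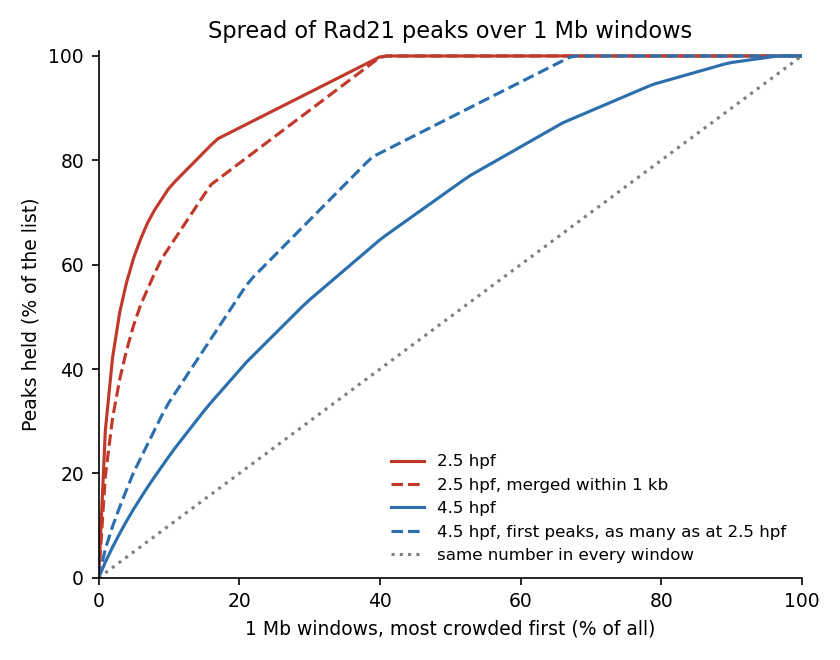
Share of each Rad21 list (y, % of its peaks) held by a given share of 1 Mb windows (x, % of 1369 windows, ranked from the most crowded for each list), with the grey line for equal counts in every window. The 2.5 hpf curves rise steeply and reach 100% at 40.2% of windows, above both 4.5 hpf curves at 10% of windows (74.7% against 23.3%).

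A few windows made up much of the 2.5 hpf list. As few as 40 windows, 2.92%, were enough to hold 50% of its peaks, against 377 windows, 27.5%, at 4.5 hpf. There were 43 windows with 10 or more 2.5 hpf peaks, and they held 51.9% of that list. None of these 43 was among the 145 windows with 10 or more peaks at 4.5 hpf, and the most any of them held at 4.5 hpf was 9. Over all windows 145 of 1369 were 10.6%, and 0 of 43 has an exact interval up to 8.22%. Chromosome 4 beyond 24 Mb weighs on this. It gave 6 of the 22 windows with 10 to 19 peaks of 2.5 hpf, 6 of the 21 with 20 or more, and 0 of the 145. No interval was taken without chromosome 4, and neighbouring windows are not independent, so the 0 of 43 cannot show that crowded windows avoid each other. Of the 145 windows, 89 had no 2.5 hpf peak at all, or about as large a share as over all windows occupied at 4.5 hpf (59.8%).

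The extremes of the lists fell in different places. The 5 fullest windows of 2.5 hpf were on chromosomes 8, 24, 12, 20 and 16. The fullest, on chromosome 8 from 35 to 36 Mb, held 83 peaks of 2.5 hpf and 1 of 4.5 hpf. The next, on chromosome 24 from 12 to 13 Mb, held 77 and 1. The 5 fullest windows of 4.5 hpf held 17 to 19 peaks each and none of 2.5 hpf. Of all windows occupied at 4.5 hpf 59.8% had none either, so 5 windows can show little. These 5 lay on chromosome 14 from 31 to 32 Mb (19 peaks) and from 33 to 34 Mb (17), chromosome 3 from 40 to 41 Mb (18), chromosome 5 from 34 to 35 Mb (18) and chromosome 20 from 23 to 24 Mb (18). At 10 hpf the windows of this second set held 23 to 39 Rad21 peaks, against a median of 14 over all windows occupied at 4.5 hpf only. Those of the first set held 5 to 9, against a median of 12 over windows occupied at both stages.

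Some windows were well filled at both stages. Of the 139 windows with at least 3 peaks of 2.5 hpf, the least count among its most crowded 10%, 15 held 10 or more at 4.5 hpf. That was 10.8% (6.17 to 17.2), against 10.6% of all windows. The 15 had at most 7 peaks at 2.5 hpf. Those with 7 were chromosome 11 from 31 to 32 Mb, with 15 at 4.5 hpf, chromosome 13 from 28 to 29 Mb, with 13, and chromosome 8 from 29 to 30 Mb and chromosome 25 from 19 to 20 Mb, with 10 each. Those with 5 were chromosome 6 from 49 to 50 Mb, with 13, chromosome 23 from 4 to 5 Mb, with 11, and chromosome 3 from 39 to 40 Mb and the end of chromosome 17 from 53 Mb, with 10 each. Across all 1369 windows the counts of the lists were nearly unrelated, with Spearman's rho of -0.086 (Pearson's r -0.10), and -0.031 over the 1306 windows outside chromosome 4. The points share their libraries, and the value is a description.

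**Figure D2:**
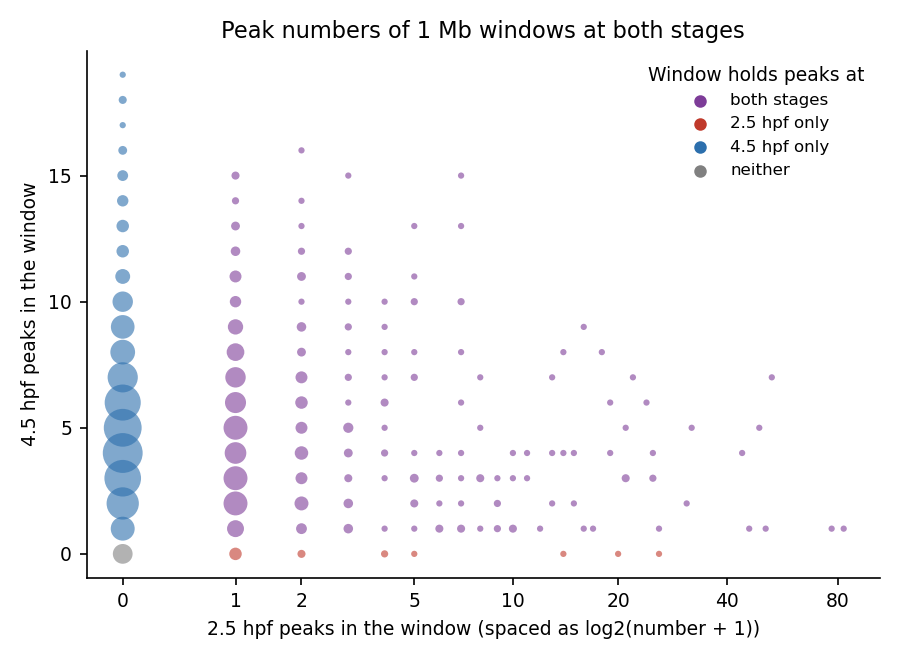
Number of 4.5 hpf Rad21 peaks (y) against number of 2.5 hpf Rad21 peaks (x, spaced as log2 of the number plus 1) in 1 Mb windows, with larger points for more windows and colours for the stages at which a window holds a peak. Windows with 10 or more 2.5 hpf peaks reach at most 9 peaks of 4.5 hpf. The windows with 17 or more 4.5 hpf peaks hold none of 2.5 hpf, as do 59.8% of all windows occupied at 4.5 hpf.

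Windows fell into 4 classes by occupancy. Both stages occupied 532 windows, 38.9% of all, and 790 windows, 57.7%, were occupied at 4.5 hpf only. Windows occupied at 2.5 hpf only numbered 19, or 1.39%, and 28, or 2.05%, held no peak of either list. The share of windows that lacked 4.5 hpf Rad21 hardly depended on whether they held 2.5 hpf Rad21. It was 3.45% (2.09 to 5.33) of the 551 windows occupied at 2.5 hpf and 3.42% (2.29 to 4.91) of the 818 others. In the other direction 59.8% (57.1 to 62.4) of the windows occupied at 4.5 hpf had no 2.5 hpf peak, and 59.6% (44.3 to 73.6) of the 47 windows empty at 4.5 hpf had none. At the scale of 1 Mb, these shares differed by less than their counting intervals.

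With the first 2011 peaks of 4.5 hpf, 194 windows were occupied at 2.5 hpf only, which was 35.2% (31.2 to 39.4) of the windows with 2.5 hpf peaks. Among windows without 2.5 hpf peaks 30.9% (27.8 to 34.2) lacked one of these 2011. The intervals overlap. Without chromosome 4 the shares were 33.7% (29.6 to 37.9) and 31.1% (27.9 to 34.4).

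The 19 windows occupied at 2.5 hpf only held 89 peaks, 4.43% of that list, and lay on 12 chromosomes. Just 3 of them held 60 of the 89 peaks. Chromosome 16 from 16 to 17 Mb held 26 peaks with a median deposited fold enrichment over modelled input of 3.01. Chromosome 4 from 44 to 45 Mb held 20, at a median of 4.83-fold, and chromosome 4 from 37 to 38 Mb held 14, at 5.34-fold. The remaining 16 windows held at most 5 peaks each, and 10 of the 19 held a single peak.

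Others named by their count were chromosome 4 from 32 to 33 Mb with 5 peaks, chromosome 15 from 9 to 10 Mb and chromosome 22 from 29 to 30 Mb with 4 each, and chromosome 5 from 4 to 5 Mb, chromosome 20 from 12 to 13 Mb and chromosome 22 from 31 to 32 Mb with 2 each. Chromosome 3 from 4 to 5 Mb was one of those with 1 peak. Beyond 24 Mb of chromosome 4, its long arm, which is rich in repeats and heterochromatin in zebrafish, lay 4 of the 19 windows with 40 of the 89 peaks.

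Most of these windows were not empty of Rad21 at 10 hpf. Of the 19, 16 held a 10 hpf Rad21 peak and 14 a CTCF peak, where 99.1% of all windows held the first and 99.1% the second. Rad21 at 10 hpf reached 6.32 peaks per Mb in them, against 12.5 in windows occupied at both earlier stages and 14.4 in windows occupied at 4.5 hpf only. CTCF, mapped at 10 hpf, reached 5.79, 10.1 and 10.8 peaks per Mb in the same order. Outside chromosome 4 the Rad21 densities were 7.87, 13.1 and 14.2, and those of CTCF 7.33, 10.5 and 10.8. The 28 windows without either earlier list stood lower still for Rad21, at 4.48 per Mb, and at 7.34 for CTCF. Outside chromosome 4 such windows had 4.57 and 7.51, so for CTCF they were close to windows occupied at 2.5 hpf only. Among these classes, low density at 10 hpf therefore went with the absence of 4.5 hpf peaks. For Rad21 outside chromosome 4 it was lower without 2.5 hpf peaks (4.57) than with them (7.87). The 21 windows with 20 to 83 peaks of 2.5 hpf were also low, at 7.12 Rad21 peaks per Mb, and only 2 of them lacked a 4.5 hpf peak.

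The 10 fullest windows occupied at 4.5 hpf only held 15 to 19 peaks. Beside the 5 named above they were chromosome 3 from 15 to 16 Mb and from 16 to 17 Mb (16 and 15 peaks), chromosome 8 from 54 to 55 Mb, chromosome 19 from 1 to 2 Mb and chromosome 25 from 36 to 37 Mb (16 each). They carried 12 to 39 Rad21 peaks and 9 to 16 CTCF peaks at 10 hpf. Windows of this class held 61.6% of the 4.5 hpf list on 57.7% of the windows, with a median of 5 peaks per window, as in windows occupied at both stages (median 5). The presence of an earlier peak thus went with no higher count later.

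Windows with many 2.5 hpf peaks carried fewer later peaks. Density at 4.5 hpf was 5.41 peaks per Mb in the 818 windows without a 2.5 hpf peak, 5.23 in the 321 windows with 1 and 5.38 in the 140 with 2 to 4. It was 4.45 in the 47 windows with 5 to 9, 3.55 in the 22 with 10 to 19 and 3.13 in the 21 with 20 to 83. Quartiles of the 4.5 hpf count were 3 and 7 where no 2.5 hpf peak lay and 1 and 5 in the last bin, so the bins overlap. Peaks of 10 hpf went the same way, from 14.0 to 7.12 per Mb for Rad21 and from 10.7 to 5.10 for CTCF between the first bin and the last. Part of the fall came from chromosome 4, which gave 12 of the 47 windows with 5 to 9 peaks. Without chromosome 4 the 4.5 hpf densities were 5.36, 5.30, 5.51, 5.43, 4.38 and 3.11 from the first bin to the last, and the lower values were those of the 16 windows with 10 to 19 peaks and the 15 with 20 or more.

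**Figure D3:**
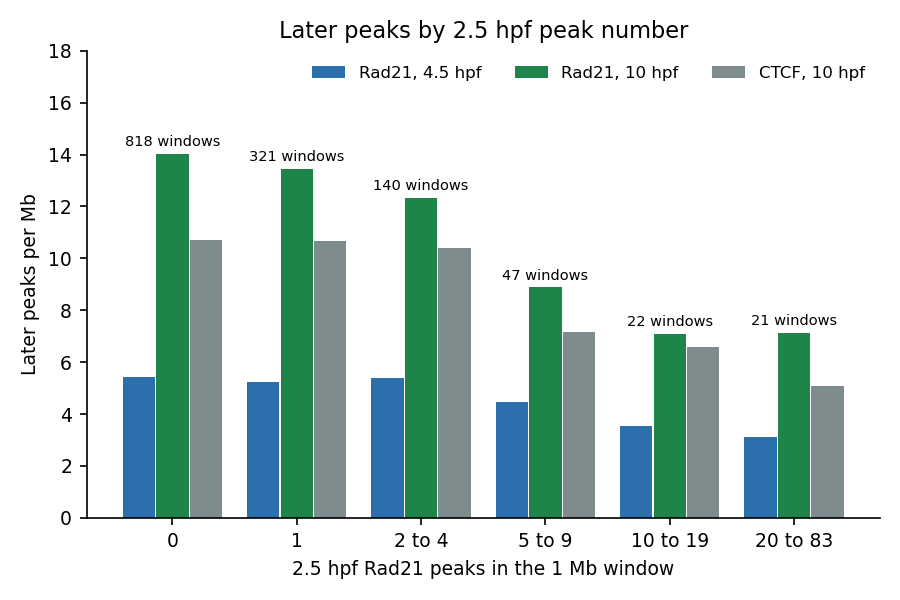
Later peaks per Mb (y) in 1 Mb windows grouped by their number of 2.5 hpf Rad21 peaks (x), with a bar for 4.5 hpf Rad21, 10 hpf Rad21 and 10 hpf CTCF and the number of windows above each group. Bars differ little up to 4 peaks and are lower from 5 peaks on, ending at 3.13, 7.12 and 5.10 per Mb.

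The 2.5 hpf peaks stood on unequal input. MACS2 sets each peak against a modelled local background from the inputs, which can be recovered from the deposited pileup (the tags covering the summit) and fold enrichment. Over the 2011 peaks its median was 12.9 times the genome average, and 23.8% stood on a background under 2 times the average. In the 5 fullest windows the median ran from 8.75 to 41.3 times the average, above 12.9 in all but the window on chromosome 8. HOMER screens peaks in another way. Of its 18663 putative 4.5 hpf peaks, 11034 or 59.1% were removed for lack of 4-fold enrichment over input, and 484 or 2.59% for lack of 4-fold enrichment over the surrounding 10000 bp. The part of input background and of either caller's screen in the lower later density was not tested.

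Nearest distances were taken between peak centres. From the centre of a 2.5 hpf peak the nearest 4.5 hpf peak was a median of 135 kb away (order-statistic 95% interval 125 to 141), and the middle 50% lay between 49.8 and 275 kb. Genome positions taken every 1 kb on the same chromosomes, assembly gaps included, were a median of 78.7 kb from a 4.5 hpf peak, with quartiles of 29.9 and 174 kb. Within 1 kb lay 7 of the 2011 peaks, 0.348% (0.140 to 0.716), where 1.04% of genome positions did. Within 10 kb it was 77 peaks, 3.83% (3.03 to 4.76), against 9.63% of positions, and within 100 kb 838 peaks, 41.7% (39.5 to 43.9), against 57.5%. All 2011 had a 4.5 hpf peak within 1 Mb, the farthest at 892 kb, as did 99.9% of positions. For all peaks, the shares were thus below those of genome positions at each of these distances up to 100 kb. These intervals treat peaks of one run as independent. With peaks within 10 kb joined to 857 regions, the median was 98.04 kb (85.2 to 110). Within 1 kb lay 0.467% (0.127 to 1.19) of the regions, an interval that includes the 1.04% of positions. Within 10 kb it was 6.30% (4.77 to 8.14) and within 100 kb 50.3% (46.9 to 53.7), still below the shares of positions.

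Peaks in runs and peaks on their own differed in this respect. The 1359 peaks of 2.5 hpf with another within 10 kb were a median of 151 kb from a 4.5 hpf peak, with 2.21% (1.49 to 3.14) inside 10 kb. The 652 without such a neighbour were a median of 92.9 kb away, with 7.21% (5.34 to 9.47) inside 10 kb. The low-background peaks were close to the solitary ones, at 96.4 kb and 6.28% (4.27 to 8.84). The 38 peaks of at least 10-fold enrichment were the closest, at a median of 45.1 kb (25.5 to 58.4). Of them 4, or 10.5% (2.94 to 24.8), lay inside 10 kb, an interval that includes the 9.63% of genome positions. Their median was below the 78.7 kb of genome positions. Within 100 kb lay 71.1% (54.1 to 84.6) of them, against 57.5% of positions.

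Positions in the peaks' own windows mostly gave shares between those of the peaks and that of the whole genome. When genome positions were drawn from the 1 Mb window of each 2.5 hpf peak, 7.53% of positions lay within 10 kb of a 4.5 hpf peak, against the 3.83% (3.03 to 4.76) of peaks. For peaks in runs the own-window share was 6.79%, against 2.21% (1.49 to 3.14). These 1359 peaks come from only 205 runs, so this interval is too narrow and cannot decide whether runs differ from their windows. For solitary peaks it was 9.05%, inside the interval of their 7.21% (5.34 to 9.47), and for peaks on a low background 8.64%, inside that of their 6.28% (4.27 to 8.84). For these last groups no difference from their surroundings was detectable at this number of peaks. The 38 peaks of at least 10-fold enrichment went another way. Their own-window share within 10 kb was 13.1%, above both their 10.5% (2.94 to 24.8) and the 9.63% of all genome positions. Positions in their windows were a median of 59.5 kb away, beside their 45.1 kb (25.5 to 58.4). Within 100 kb the own-window share was 66.1%, inside the interval of their 71.1% (54.1 to 84.6). The own-window comparison was chosen after the distances had been seen.

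Seen from the later stage, distances were near those of genome positions except at short range. A 4.5 hpf peak was a median of 738 kb from the nearest 2.5 hpf peak, where genome positions were 696 kb away. Within 100 kb it was 9.81% of the 4.5 hpf peaks and 10.6% of positions, and within 10 kb 63 peaks, 0.882% (0.678 to 1.13), and 1.4% of positions. Within 1 kb it was 0.0840% of peaks and 0.241% of positions, and 62.8% of positions had a 2.5 hpf peak within 1000 kb. The place of a peak in the 4.5 hpf list made little difference, with medians of 729 kb in the first decile and 741 kb in the last.

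**Figure D4:**
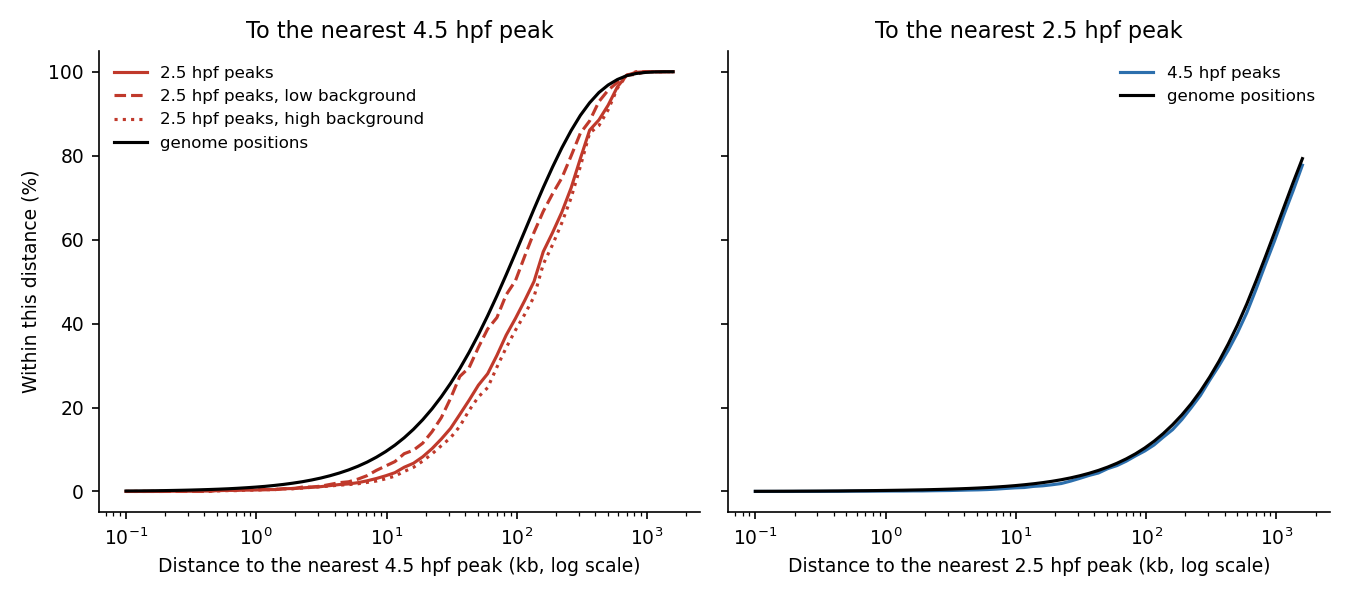
Share of peaks or genome positions (y, %) that lie within a given distance (x, kb, log scale) of the nearest 4.5 hpf peak (left) or 2.5 hpf peak (right). On the left the curves of 2.5 hpf peaks run below that of genome positions up to about 593 kb and meet it beyond. At 10 kb all peaks reach 3.83%, against 9.63% of positions. Low-background peaks (under 2 times the average) run between all peaks and positions from about 2.25 to 593 kb. On the right the curves run close together, at 9.81% and 10.6% within 100 kb.

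The 10 hpf lists placed the stages differently again. Peaks of 4.5 hpf lay a median of 3.86 kb from a 10 hpf Rad21 peak, and those of 2.5 hpf 68.1 kb, where genome positions lay 30.5 kb away. For CTCF the medians were 23.2 kb, 64.1 kb and 35.2 kb in the same order. The earlier list was thus on the far side of the genome positions for both proteins and the later list on the near side. The 10 hpf lists share caller, shearing and read length with 4.5 hpf and not with 2.5 hpf. Stage and processing cannot be told apart here.

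Of the 2011 peaks of 2.5 hpf, 2 overlapped a peak of 4.5 hpf, by at least 50% of the shorter one in both cases. Few positions lie so close to a 4.5 hpf peak. Within 0.227 kb of a 4.5 hpf centre lay 0.236% of genome positions and 0.0497% of 2.5 hpf peaks. A count of 2 is too small to show a difference from genome positions. On chromosome 18, a wide peak of 2.5 hpf at 29352022 to 29354916 (Zv9, as are all positions) covered the whole of the 4.5 hpf peak at 29352878 to 29353046, place 1977 in the deposited order. The 2.5 hpf peak had 59.3-fold enrichment, a pileup of 121 tags and a background of 1.40 times the average. It overlapped a Rad21 peak of 10 hpf, which its 4.5 hpf partner did not. On chromosome 13, the peak at 43124076 to 43124484 shared 96 bp with the 4.5 hpf peak at 43124389 to 43124557. It stood at 4.21-fold with a pileup of 11 tags, while its 4.5 hpf partner was high in its list, at place 24, and was a Rad21 peak at 10 hpf as well. Neither 4.5 hpf peak overlapped a CTCF peak.

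The 10 closest pairs without an overlap spanned centre distances of 364 to 1498 bp and involved 7 peaks of 4.5 hpf. The closest lay on chromosome 20, where the 2.5 hpf peaks at 47561098 to 47561352 (4.17-fold) and 47561489 to 47561806 (2.67-fold) stood beside the 4.5 hpf peak at 47561927 to 47562095. On chromosome 9, the peaks at 58077470 to 58077687 (6.80-fold) and 58079307 to 58079574 (4.60-fold) lay on both sides of the 4.5 hpf peak at 58077978 to 58078146, the only one of the 7 that overlapped a CTCF peak. Chromosome 4 beyond 24 Mb held 4 of the 10 pairs. One of them was the 2.5 hpf peak at 28183560 to 28184156 (2.66-fold) and the 4.5 hpf peak at 28184512 to 28184680. The other 2 pairs were single peaks on chromosome 15 at 46190616 to 46191021 (4.49-fold) and on chromosome 10 at 17425616 to 17425865 (9.66-fold).

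Of the 38 peaks of at least 10-fold enrichment, 36 lay in windows with a 4.5 hpf peak, 94.7% (82.3 to 99.4), and of all 2.5 hpf peaks 95.6%. The highest fold enrichment in a window occupied at both stages was 144-fold, on chromosome 8 at 5006471 to 5007368, and its nearest 4.5 hpf peak was 37.4 kb away. The peak on chromosome 18 that overlapped a 4.5 hpf peak came next at 59.3-fold. It was followed by chromosome 11 at 3922037 to 3923047, with 53.6-fold and 20.3 kb to the nearest 4.5 hpf peak, chromosome 3 at 26919330 to 26919782, with 35.5-fold and 3.66 kb, and chromosome 18 at 12173113 to 12173496, with 31.8-fold and 50.2 kb. All 5 stood on backgrounds of 1.05 to 2.1 times the average. Their nearest Rad21 peaks of 10 hpf were 37.6, 0.262, 0.001, 1.92 and 17.3 kb away, in the same order.

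In windows occupied at 2.5 hpf only the highest value was 12.3-fold, on chromosome 18 at 11203464 to 11203817, the peak 892 kb from any 4.5 hpf peak. Rad21 of 10 hpf was found 19.9 kb away from it and its window held 20 such peaks. The others were chromosome 13 at 41007651 to 41008111 with 11.2-fold, and 3 peaks of chromosome 4, at 37299105 to 37299373 (9.11-fold), 44018883 to 44019164 (8.13-fold) and 32479768 to 32480158 (7.23-fold). The median fold enrichment was 4.54 over the 89 peaks in such windows and 3.83 over the 1922 in windows with both. Their median backgrounds were 6.65 and 13.6 times the average.

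Few 4.5 hpf peaks lay inside runs of 2.5 hpf peaks, which cover little of the genome. Joining peaks within 10 kb of each other left 857 regions, 652 of them single peaks and 205 of 2 peaks or more. The 205 covered 2354 kb in all and held 4 peaks of 4.5 hpf, or 1.70 per Mb. The 1 Mb windows around them carried 3.55 per Mb, which on that length comes to 8.36 peaks, and the genome as a whole 5.27 per Mb, or 12.4 peaks. The 32 runs of 10 peaks or more held 720 of the 2.5 hpf peaks on 1176 kb and no 4.5 hpf peak. At the 3.25 per Mb of their own windows that length comes to 3.82 peaks. Both the count of 4 and the count of 0 rest on few peaks, and neither was tested against its windows. The longest run, on chromosome 24 at 12337735 to 12467057, held 77 peaks over 129 kb, and its centre was 519 kb from the nearest 4.5 hpf peak. On chromosome 12 a run of 53 peaks at 16867919 to 16929189 was 257 kb away, and on chromosome 16 a run of 48 peaks at 20242839 to 20325070 was 81.4 kb away. The later caller requires each peak to stand 4-fold above its surrounding 10000 bp and at least 336 bp from the next. The part of these rules in the spacing of 4.5 hpf peaks was not tested. Neighbours of the same list were a median of 1.64 kb apart at 2.5 hpf and 47.2 kb at 4.5 hpf. With 10 kb runs taken as single regions the 2.5 hpf median was 347 kb.

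Long stretches without a peak were the rule at 2.5 hpf. Stretches over 1 Mb between neighbouring peaks made up 89.4% of the chromosomes at 2.5 hpf, 64.6% for the first 2011 peaks of 4.5 hpf and 12.7% for the whole 4.5 hpf list. The 5 longest without a 2.5 hpf peak were the first 18.6 Mb of chromosome 4, with 153 peaks of 4.5 hpf inside, chromosome 2 from 40440371 to 54118036 with 53, chromosome 23 from 22462859 to 35925474 with 104, chromosome 12 from 33558196 to 44563394 with 41, and chromosome 10 from 1017964 to 11692290 with 53. In this order they were 18.6, 13.7, 13.5, 11.0 and 10.7 Mb long, beside 5.27 peaks of 4.5 hpf per Mb over the genome. No stretch without a 4.5 hpf peak exceeded 2.50 Mb, so stretches of such length had to hold some.

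Stretches over 1 Mb without a 4.5 hpf peak numbered 129. They made up 12.7% of the length and held 451 peaks of 2.5 hpf, or 22.4% of that list. Every peak of a run is counted here, among them a run of 77 on chromosome 24 and a run of 25 on chromosome 16. No share with runs counted once was taken. The 5 longest, of 2.16 to 2.50 Mb, held few. A single 2.5 hpf peak lay in each of chromosome 3 from 2570762 to 5068661, chromosome 7 from 4342501 to 6809144 and chromosome 7 from 1602294 to 3882412, and none in chromosome 9 from 53721461 to 56197934 or chromosome 12 from 41013634 to 43173608. The stretch on chromosome 9 held 25 Rad21 peaks at 10 hpf, while the other 4 held 1 to 5.

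Chromosomes differed far more at 2.5 than at 4.5 hpf. The earlier density ran from 0.464 to 5.12 peaks per Mb, an 11.0-fold range, and the later one from 4.11 to 6.29, a 1.53-fold range. The lists differ in length, and no range at equal length was taken. Counting error weighs more on the shorter 2.5 hpf list. With 10 kb runs counted as single regions the 2.5 hpf range was 3.74-fold, and 2.31-fold without chromosome 4, so the range was narrower where runs were counted once. Chromosome 4 was the only chromosome with more peaks per Mb at 2.5 than at 4.5 hpf, at 5.12 against 4.11, a ratio of 1.25. Chromosome 8 followed at 3.54 against 5.41 (ratio 0.655), and chromosome 24 at 2.89 against 4.62 (ratio 0.626). A single window held 41.7% of the 2.5 hpf peaks of chromosome 8 and 60.6% of those of chromosome 24, but 9.75% on chromosome 4. The lowest ratios were on chromosome 1, with 28 peaks at 2.5 hpf and 314 at 4.5 hpf (0.0892), chromosome 19, with 30 and 316 (0.0949), and chromosome 6, with 34 and 320 (0.106).

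**Figure D5:**
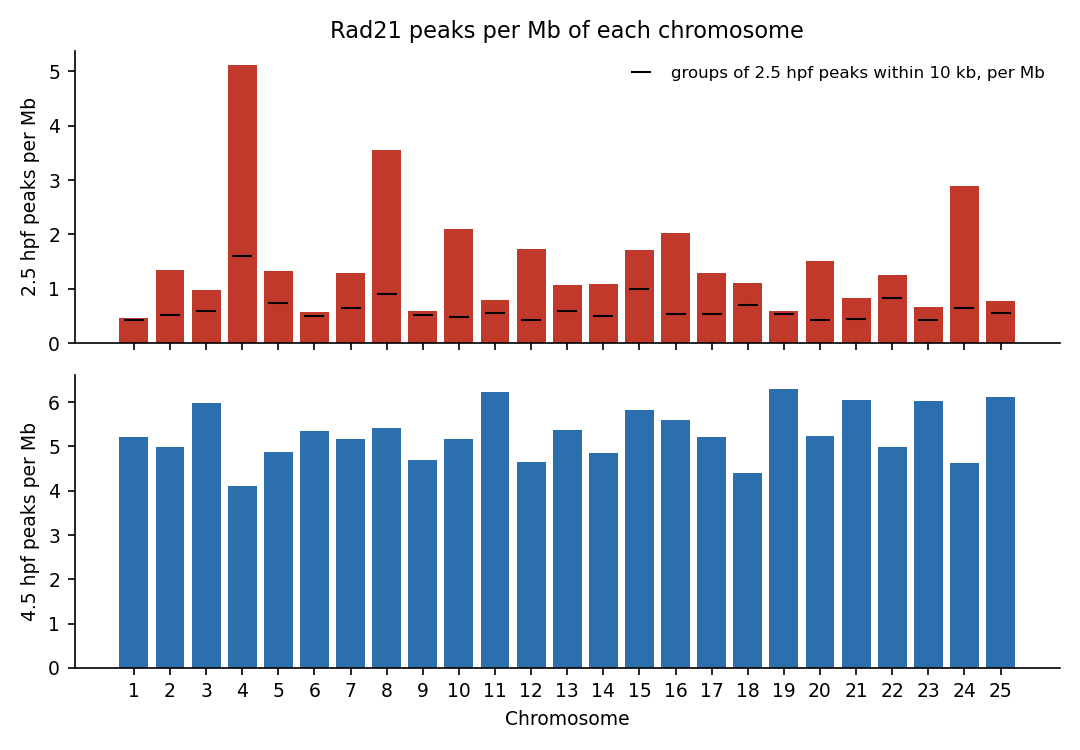
Rad21 peaks per Mb (y) of chromosomes 1 to 25 (x) at 2.5 hpf (top) and 4.5 hpf (bottom), with black marks for 2.5 hpf peaks counted after joining those within 10 kb. The 2.5 hpf bars run from 0.464 to 5.12 with chromosomes 4, 8 and 24 highest, and the 4.5 hpf bars stay between 4.11 and 6.29 with chromosome 4 lowest.

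The arms of chromosome 4 went opposite ways. Up to 24 Mb the chromosome held 3 peaks of 2.5 hpf and 171 of 4.5 hpf, and beyond it 315 and 84. Both stages occupied 34 of the 39 windows of the long arm, though not the same 34. On the short arm 3 of 24 windows were occupied at 2.5 hpf and all 24 at 4.5 hpf. Distances on the long arm were near those of its own positions, with a median of 171 kb from the 315 peaks to a 4.5 hpf peak and 175 kb from genome positions there, and 4.76% and 4.29% within 10 kb. An excess of the peaks' distances over those of positions was thus not seen on the long arm. Without chromosome 4 the median was 125 kb against 77.7 kb for positions, and with it 135 kb against 78.7 kb.

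Chromosome ends were rich in peaks at both stages, at 2.5 hpf partly through a single end. Within 1 Mb of an end, taken as the first base or the last listed peak, the density was 3.14 peaks per Mb at 2.5 hpf and 9.32 at 4.5 hpf, against 0.650 and 4.79 between 1 and 5 Mb from an end and 1.56 and 5.17 farther in. The end of chromosome 20 gave 51 of the 157 peaks of 2.5 hpf and 3 of the 466 of 4.5 hpf. Without it the densities were 2.16 and 9.45. The 2.5 hpf peaks within 1 Mb of an end stood on a median background of 16.1 times the average. Between 1 and 5 Mb it was 3.29 times, and farther in 13.6 times. These densities count every peak of a run.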

How the data were processed

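Chromatin immunoprecipitation with sequencing was done on whole embryos. Alignment with Bowtie2 2.2.1 to Zv9 is named in the submitters' processing notes. Per the file headers, MACS2 2.1.0.20151222 called the 2.5 hpf list (q-value threshold 0.05) on both libraries pooled against both inputs. The 4.5 hpf list is HOMER output from 1 tag directory (false discovery threshold 0.001, 4-fold over input and over the surrounding 10000 bp). For each 2.5 hpf peak the authors deposited a pileup signal, a fold enrichment ratio and −log10 of the q-value. The score deposited in the HOMER lists is 1 in every row. Their row order was used as a rank, and no source used here says what it follows.

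Positions are 1-based. A chromosome's length was its largest peak end over the 4 lists. The modelled background was (pileup + 1) / fold − 1, divided by the genome average (tags left × 209 bp fragments / 1450000000 bp). Intervals are exact binomial (scipy 1.17.1). Window and distance measures were checked on simulated lists. The windows, peaks and chromosomes named are the fullest, closest or most extreme by a written rule of fixed numbers (5 or 10 windows, 10 pairs, 5 peaks, 5 stretches, 3 chromosomes at either end). Windows well filled at both stages are named with ties, so 3 more than that rule gives were named after their values were seen. The members, measures and lists were chosen with earlier results of these data known. Peaks of 10 hpf served for comparison. One peak outside chromosomes 1 to 25 was left out. No genome of the Zv9 build was used, so neither genes nor sequences at the peaks are named.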

Additional observations from a re-analysis of the deposited data

Results flagged for a closer look

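The one peak outside the chromosomes was the 2.5 hpf peak over the mitochondrial sequence, 1 to 16570, with a deposited fold enrichment of 3.76 over modelled input and a pileup of 418 tags. It drew attention as a signal outside the window and distance measures, and it entered none of them.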

How the results depend on the processing

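Of 69 recomputed values, 41 stayed within the counting interval of the reported value or, for counts of windows, within 1.5 times of it, and 28 moved. Window width set the counts. With 500 kb windows 107 were occupied at 2.5 hpf only and 1804 at 4.5 hpf only, and the crowded 10% held 82.3% of the 2.5 hpf and 28.0% of the 4.5 hpf peaks. With 2 Mb windows these values were 0, 247, 67.3% and 19.95%. Shifting the windows by 500 kb moved none of these. With the first 2011 peaks of 4.5 hpf, 194 windows were occupied at 2.5 hpf only, the crowded 10% held 33.6% of them, the median distance from a 2.5 hpf peak was 453 kb (genome positions 289 kb), 1.54% of 2.5 hpf peaks lay within 10 kb (positions 2.81%), and 1.14% of these 4.5 hpf peaks lay within 10 kb of a 2.5 hpf peak. In a shortened list distances grow by construction. Among other versions of the 2.5 hpf list, the share in the crowded 10%, the median distance and the share within 10 kb were 62.3%, 116 kb and 5.95% for the 908 peaks of at least 4-fold enrichment. They were 50.4%, 96.4 kb and 6.28% for the 478 on a background under 2 times the average (with 0.45% of 4.5 hpf peaks within 10 kb). They were 63.3%, 119 kb and 5.12% with peaks within 1 kb merged, and 47.5%, 98.04 kb and 6.30% with those within 10 kb joined, an alternative chosen after seeing the data. With the 1768 peaks of q at most 0.001 only the share in the crowded 10% moved, to 78.3%. Without chromosome 4 the median distance was 125 kb, and edge-to-edge distances moved no value. The cause of the moves in the 2.5 hpf list was not tested. A longer median distance than that of genome positions held in each version named here, but not for the 38 peaks of at least 10-fold enrichment (45.1 kb). Greater crowding at 2.5 hpf narrowed: at equal length the crowded 10% held 42.9% of 4.5 hpf peaks beside the 47.5% when both lists were joined within 10 kb, and 53.3% beside the 50.4% of low-background peaks. No paired analysis was possible because the lists pool their libraries, and for the same reason no library could be left out. The part of depth, 5245276 usable tags at 2.5 hpf, in the length of that list was not tested.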
